A study of Arabidopsis thaliana with 8 samples.

Results

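The miRNA families miR160, miR164, miR167, miR390 and miR393, which act on the auxin pathway, have 8 entries among the 161 *A. thaliana* miRNAs of the deposited table. Members were chosen by their deposited value, which had to exceed 0.01, the lowest value in the table, on at least 1 of 8 arrays. This rule retained 4 entries, namely miR160a, miR164a, miR167a and miR390a, and all 4 were above 0.01 on all 8 arrays. The other 4 entries, miR164c, miR167c, miR167d and miR393a, were at 0.01 on every array, so the miR393 family has no measured member here. How the value of 0.01 was set is not given in the sources used here, and it does not show that these miRNAs were absent from the seedlings.

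Whole 7-day-old Columbia (Col-0) seedlings, grown in liquid half-strength MS medium with sucrose under continuous light, were exposed to 24-epibrassinolide (EBR, a highly active brassinosteroid) at 10 nM or to a mock solution of the solvent, dimethyl sulfoxide (DMSO). The exposure lasted 30 min (groups mock30 and EBR30) or 180 min (mock180 and EBR180), and each of the 4 groups was hybridised to 2 single-colour arrays. The plants carried no transgene or mutation, and by their labels the groups differ only in agent and time. Shoots and roots were extracted together, so fewer cells of a type and less miRNA per cell cannot be told apart, and a miRNA array carries no marker by which the tissue could be checked.

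Auxin is perceived by F-box receptors and acts on transcription through the auxin response factors (ARFs), and plant miRNAs bind nearly complementary sites in such transcripts and mostly cause their cleavage. miR160 directs the cleavage of ARF10, ARF16 and ARF17 transcripts, which code for repressing ARFs, and miR167 that of ARF6 and ARF8, which code for activating ones. miR390, loaded into AGO7, cuts the noncoding TAS3 transcript and thereby starts the trans-acting small RNAs that restrain ARF2, ETT (ARF3) and ARF4. miR164 targets transcripts of NAC domain factors, among them NAC1, which acts downstream of auxin in lateral root formation, and CUC1 and CUC2, which set organ boundaries. miR393 targets the receptor transcripts TIR1, AFB2 and AFB3.

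In the RefSeq gene table of assembly TAIR10.1, the 5 families comprise 14 loci, and all 8 entries of the array matched one by name. The measured entries correspond to *MIR160a* (AT2G39175), *MIR164a* (AT2G47585) and *MIR390a* (AT2G38325) on chromosome 2 and to *MIR167a* (AT3G22886) on chromosome 3. An array value cannot be assigned to a single locus where several loci give the same mature miRNA, as *MIR160a*, *MIR160b* and *MIR160c* do, and likewise the a and b loci of the other 4 families. The values are therefore those of a mature sequence, named after its first locus.

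The deposited value of each of the 4 is a linear ratio in which 1 stands for the median of that miRNA over the 8 arrays, as it is for 39 other miRNAs above 0.01 on all arrays. They compare groups within a miRNA and hold no information on which of the 4 was more abundant. The linear ratios of the 4 stayed between 0.763 and 1.15. Their log2 ranges over the 8 arrays were 0.55 for miR160a, 0.49 for miR164a, 0.47 for miR167a and 0.43 for miR390a, against a median range of 0.59 over the 43 miRNAs.

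Part of this range was common to whole arrays. The median ratio over the 43 miRNAs lay between 0.818 and 1.12 on the 8 arrays, and was lowest on the mock30 arrays. The median log2 difference of the 43 miRNAs was 0.18 between EBR30 and mock30, -0.02 between EBR180 and mock180, 0.29 between mock180 and mock30, and 0.10 between EBR180 and EBR30. The log2 ratios were compared with limma, a linear model across all 43 miRNAs, with Benjamini-Hochberg adjustment over the 43 and a threshold of 0.05; intervals are not adjusted. Each comparison is given on the deposited ratios and after every array was centred on its median log2 ratio, which removes any shift common to an array, technical or biological. Centring narrowed the log2 range of miR167a to 0.11, the narrowest of the 43 miRNAs, and those of miR160a and miR164a to 0.18 and 0.20, the fifth and the sixth narrowest. That of miR390a narrowed less, to 0.33, against a median centred range of 0.42.

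**Figure D1:**
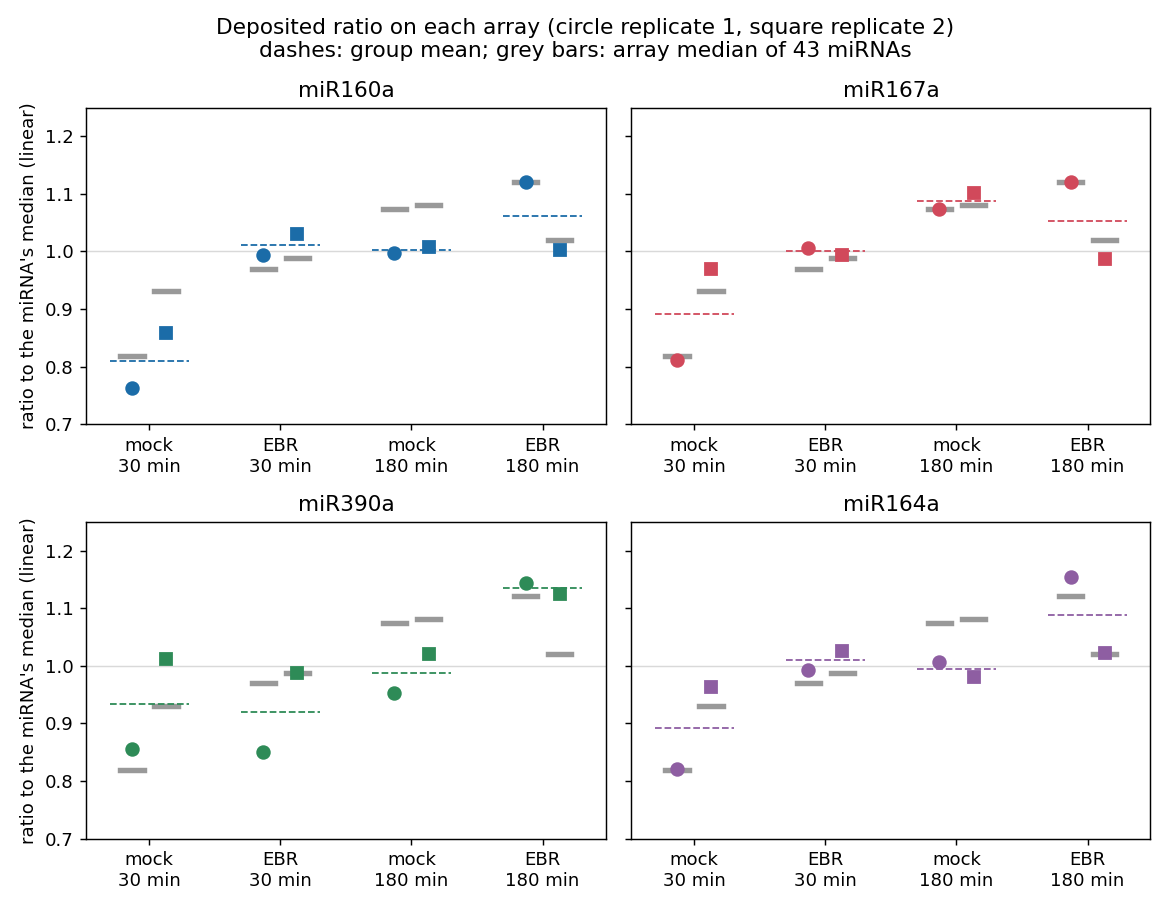
Deposited linear ratio of miR160a, miR167a, miR390a and miR164a (vertical axes) on the 2 arrays of each group (circle, replicate 1; square, replicate 2). Dashes are group means and grey bars the median of the 43 miRNAs on the same array. miR167a lies close to the bars. Both EBR180 arrays of miR390a (1.14 and 1.12) lie above every other array of that miRNA. The mock30 arrays of miR160a (0.763 and 0.858) lie below every other, as do the grey bars of mock30.

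miR160a, which restrains the repressing ARFs, was lowest in mock30. Its linear ratio was 0.763 and 0.858 in mock30, against 0.993 and 1.03 in EBR30. At 180 min it was 0.998 and 1.01 in mock180, against 1.12 and 1.00 in EBR180. Both mock30 arrays thus lay below the other 6 arrays, while the ranges of mock180, EBR30 and EBR180 overlapped. The group means in rising order were 0.811 ± 0.0666 (SD, n = 2 arrays) in mock30, 1.00 ± 0.00669 in mock180, 1.01 ± 0.0260 in EBR30 and 1.06 ± 0.0842 in EBR180, and the last 3 did not differ beyond their spread.

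miR160a was the only one of the 4 miRNAs past the adjusted threshold in EBR30 against mock30, where 30.2% of the 43 miRNAs passed it in the upward direction. Its log2 fold change was 0.32 with a 95% interval from 0.08 to 0.57 (limma, adjusted p = 0.0309). After centring it was 0.16 (interval 0.07 to 0.25, adjusted p = 0.0270), with 9.3% of the miRNAs called higher. On the centred log2 scale the mock30 arrays were at -0.10 and -0.12 and the EBR30 arrays at 0.03 and 0.06. Leaving out mock30 replicate 1 gave 0.24 (adjusted p = 0.210), and leaving out EBR30 replicate 1 or 2 gave 0.35 (0.115) or 0.30 (0.209), so that the call was lost with values of similar size in the latter fits. It was kept without mock30 replicate 2 (0.41, adjusted p = 0.0161). After centring the value stayed between 0.14 and 0.17 without any 1 of these 4 arrays, and the adjusted p was between 0.0790 and 0.131. It was also lost after quantile normalization (log2 fold change 0.18, adjusted p = 0.0668), on linear ratios (adjusted p = 0.0598), with each miRNA's own spread (0.0830), and when 4 further miRNAs at 0.01 on some arrays were kept in the fit (0.0626).

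At 180 min the log2 fold change of miR160a with EBR was 0.08 (interval -0.17 to 0.33, adjusted p = 0.735 from limma) and 0.09 after centring (interval 0.00059 to 0.18, adjusted p = 0.131), and it was not called. On the deposited ratios it was -0.0010 without EBR180 replicate 1 and 0.16 without EBR180 replicate 2. The difference of the EBR effect between 180 and 30 min was -0.24 with an interval from -0.59 to 0.11, and -0.07 after centring. Its adjusted p was 0.246, and 0.382 after centring, both above the threshold.

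miR167a, which restrains the activating ARFs, followed the array median most closely of the 4. The Pearson correlation of its log2 ratio with the array median over the 8 arrays was 0.97, and on 2 arrays miR167a itself was the median miRNA. The ratio of miR167a was 0.811 and 0.970 in mock30, 1.01 and 0.994 in EBR30, 1.07 and 1.10 in mock180, and 1.12 and 0.986 in EBR180. The EBR30 arrays lay just above both mock30 arrays, and the EBR180 arrays lay on either side of both mock180 arrays. In rising order the group means were 0.891 ± 0.113 (SD, n = 2 arrays) in mock30, 1.00 ± 0.00850 in EBR30, 1.05 ± 0.0950 in EBR180 and 1.09 ± 0.0194 in mock180. EBR180 overlapped with both of its neighbours in this order.

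EBR did not change miR167a past the threshold at either time. The log2 fold change was 0.17 at 30 min (interval -0.07 to 0.42, adjusted p = 0.257 from limma) and -0.05 at 180 min (interval -0.29 to 0.20, adjusted p = 0.735). After centring these were 0.01 (interval -0.10 to 0.12) and -0.04 (interval -0.15 to 0.07), the former the smallest in size of all 43 miRNAs at 30 min. Without mock30 replicate 1 the uncentred value at 30 min fell to 0.04, and without mock30 replicate 2 it was 0.30 (adjusted p = 0.0516), so that the mock30 arrays, 0.26 apart on the log2 scale, set its size.

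miR390a, the trigger of the TAS3 pathway, was highest in EBR180 and had overlapping values in EBR30 and mock30. Its ratio was 0.855 and 1.01 in mock30 and 0.851 and 0.988 in EBR30, with no separation between these groups. At 180 min it was 0.954 and 1.02 in mock180 and 1.14 and 1.12 in EBR180, and both EBR180 arrays lay above all 6 others. The means were 0.919 ± 0.0966 (SD, n = 2 arrays) in EBR30, 0.934 ± 0.111 in mock30, 0.987 ± 0.0479 in mock180 and 1.13 ± 0.0143 in EBR180, and the lowest 3 did not differ beyond their spread.

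On the deposited ratios the log2 fold change of miR390a with EBR was -0.02 at 30 min (interval -0.27 to 0.23, adjusted p = 0.866 from limma), the smallest in size of the 43 miRNAs. At 180 min it was 0.20 (interval -0.04 to 0.45, adjusted p = 0.333), and the difference between these effects was 0.22 (interval -0.13 to 0.57, adjusted p = 0.274). The difference of the EBR effect passed the threshold for 25.6% of the 43 miRNAs on the deposited ratios and 34.9% after centring. Among the 4 miRNAs only miR390a passed it, after centring alone.

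After centring, the log2 difference of miR390a between EBR30 and mock30 was -0.19 (interval -0.37 to -0.0023, adjusted p = 0.131 from limma). At 180 min it was 0.21 (interval 0.03 to 0.40, adjusted p = 0.0923). Neither value passed the adjusted threshold by itself, while the difference between them, 0.40 (interval 0.14 to 0.66), did (adjusted p = 0.0280). On EBR30 replicate 2 miR390a was itself the median miRNA, so that centring set it to 0.00. Both EBR30 arrays, at -0.19 and 0.00 on the centred log2 scale, lay below the mock30 arrays at 0.06 and 0.12. The EBR180 arrays, at 0.03 and 0.14, lay above the mock180 arrays at -0.17 and -0.08. This difference was positive with any 1 array left out, between 0.30 and 0.49, and its adjusted p was between 0.0101 and 0.0915, under the threshold in 3 of 8 such fits. It was above the threshold without mock30 replicate 1 (0.0686), mock30 replicate 2 (0.0858), EBR30 replicate 1 (0.0716), mock180 replicate 1 (0.0502) or EBR180 replicate 2 (0.0915), and also after quantile normalization, where it was 0.42 (adjusted p = 0.0617).

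Both EBR arrays exceeded both mock arrays for 3 of the 4 miRNAs at 30 min (all but miR390a), as for 65.1% of the 43. At 180 min they did so for miR164a and miR390a, as for 23.3% of the 43. After centring the EBR30 arrays were above both mock30 arrays for miR160a and below both for miR390a, where 41.9% and 32.6% of the 43 were separated in these directions. At 180 min the centred EBR arrays were above both mock arrays for 3 of the 4, all but miR167a, as for 37.2% of the 43. Between the times, both mock180 arrays exceeded both mock30 arrays for 3 of the 4, all but miR390a (76.7% of the 43), and both EBR180 arrays exceeded both EBR30 arrays for miR390a alone of the 4 (51.2% of the 43). After centring none of the 4 was higher in mock180 without overlap (27.9% of the 43), and miR164a and miR390a were lower (34.9%). With EBR, miR390a was still higher at 180 min (39.5%), and miR160a and miR167a were lower (30.2%).

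**Figure D2:**
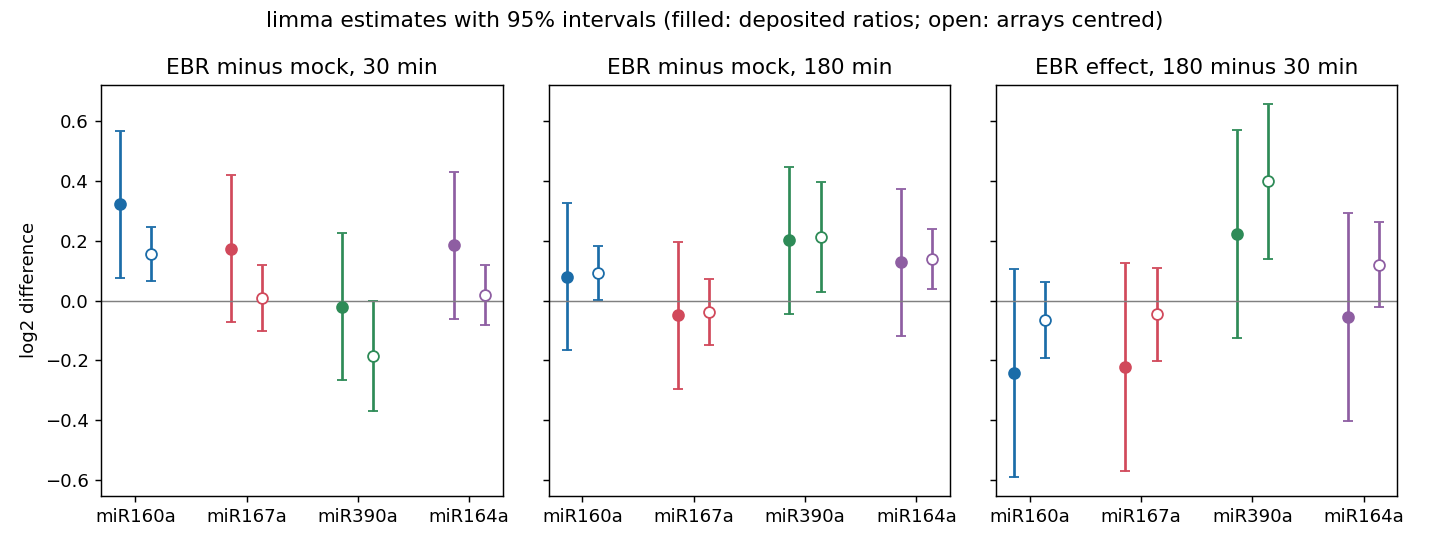
limma estimates of the log2 difference (vertical axis) between EBR and mock at 30 min, at 180 min, and of the change in this effect from 30 to 180 min for the 4 miRNAs, with 95% intervals not adjusted for multiple tests. Filled points are from the deposited ratios and open points from centred arrays; miR390a moves from -0.19 at 30 min to 0.21 at 180 min after centring, while the open points of miR167a stay near 0.

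Differences between members on the same array do not depend on the scaling of that array. The log2 ratio of miR390a minus that of miR160a was 0.16 and 0.24 in mock30 and -0.22 and -0.06 in EBR30. At 180 min it was -0.07 and 0.02 in mock180 and 0.03 and 0.17 in EBR180. The EBR arrays were thus below both mock arrays at 30 min and above both at 180 min, with mean shifts of -0.34 and 0.12. The same order was seen for miR390a against miR167a, with mean shifts of -0.19 at 30 min and 0.25 at 180 min. Against miR164a the shift was -0.21 at 30 min, again without overlap, and 0.07 at 180 min, where the arrays overlapped. A turned order was not particular to miR390a: miR160a minus miR164a also had its EBR arrays above both mock arrays at 30 min and below both at 180 min, with shifts of 0.14 and -0.05, and miR160a minus miR167a had them above at both times, by 0.15 and 0.13. These within-array differences are descriptions of 2 arrays a group, for which the smallest two-sided exact permutation p is 0.333, and no test was made on them.

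**Figure D3:**
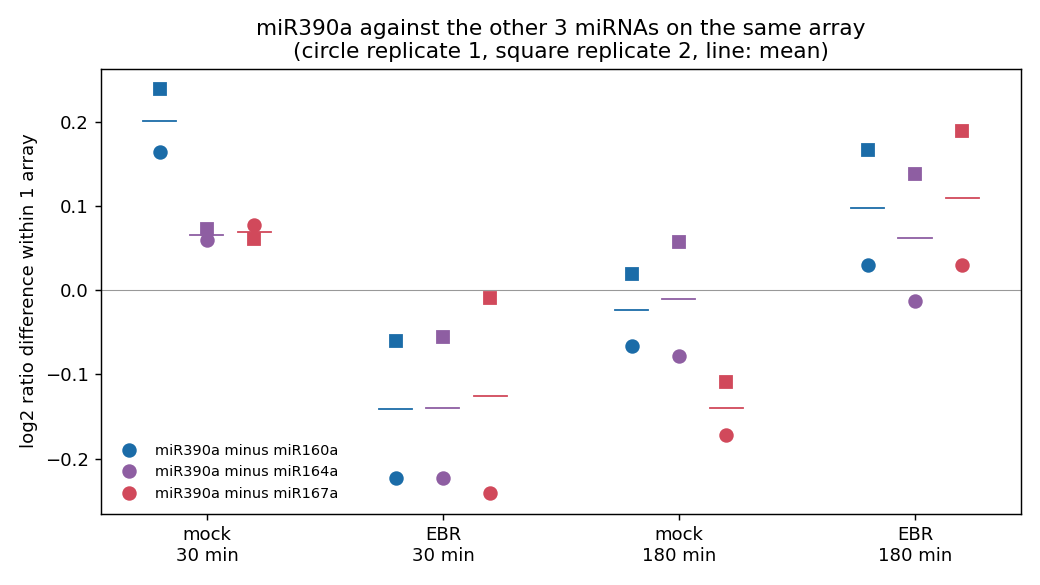
Log2 ratio of miR390a minus that of miR160a, miR164a or miR167a on the same array (vertical axis) in the 4 groups (circle, replicate 1; square, replicate 2; line, mean). All EBR30 points lie below all mock30 points, and all points of an array share its miR390a value. The mean against miR160a falls from 0.20 in mock30 to -0.14 in EBR30, and is -0.02 in mock180 and 0.10 in EBR180.

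miR164a, which targets the NAC domain factors, had its lowest values in mock30 and its highest group mean in EBR180. Its ratio was 0.821 and 0.963 in mock30, 0.994 and 1.03 in EBR30, 1.01 and 0.981 in mock180, and 1.15 and 1.02 in EBR180. The EBR arrays were above both mock arrays at each time, by a narrow margin at 180 min, where EBR180 replicate 2 was close to the higher mock180 array. The group means were 0.892 ± 0.100 (SD, n = 2 arrays) in mock30, 0.994 ± 0.0176 in mock180, 1.01 ± 0.0232 in EBR30 and 1.09 ± 0.0936 in EBR180. The ranges of mock180 and EBR30 overlapped, as did those of EBR30 and EBR180.

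At 30 min the log2 fold change of miR164a was 0.18 (interval -0.06 to 0.43, adjusted p = 0.234 from limma), which was the median of the 43 miRNAs, and after centring it was 0.02 (interval -0.08 to 0.12). At 180 min it was 0.13 (interval -0.12 to 0.37, adjusted p = 0.690). Single arrays moved both values, to 0.07 or 0.30 at 30 min without mock30 replicate 1 or 2, and to 0.04 or 0.22 at 180 min without EBR180 replicate 1 or 2. None of the 4 miRNAs passed the threshold at 180 min on the deposited ratios, where 16.3% of the 43 miRNAs passed it in either direction. After centring the value of miR164a at 180 min was 0.14 (interval 0.04 to 0.24) and passed it narrowly (adjusted p = 0.0475), with 16.3% of the 43 miRNAs called higher. With each array left out in turn after centring, the value stayed between 0.12 and 0.16 while the adjusted p was between 0.0558 and 0.233, above the threshold in all 8 such fits. After quantile normalization it was 0.15 (adjusted p = 0.0551). The difference of the EBR effect between the times was -0.06 (interval -0.40 to 0.29) and 0.12 after centring (interval -0.02 to 0.26, adjusted p = 0.175).

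Between the times, all 4 miRNAs had a higher mean deposited ratio at 180 than at 30 min in mock, as had 38 of the 43, and after centring only miR160a did, by 0.01. In mock180 against mock30 the log2 difference was 0.31 for miR160a (adjusted p = 0.0251 from limma) and 0.29 for miR167a (adjusted p = 0.0335), and these 2 of the 4 passed the threshold, as did 58.1% of the 43 miRNAs in the same direction. miR164a and miR390a, with 0.16 and 0.08, did not (adjusted p = 0.224 and 0.534). Centring turned the direction of miR167a, to -0.01, and quantile normalization that of miR160a, to -0.03. The 2 that had not passed were then below 0, with -0.14 for miR164a (interval -0.24 to -0.04, adjusted p = 0.0392) and -0.22 for miR390a (interval -0.40 to -0.04, adjusted p = 0.0598), and 18.6% of the 43 miRNAs were called lower. The calls on the deposited ratios also rested on mock30 replicate 1, without which the differences were 0.23 for miR160a (adjusted p = 0.159) and 0.16 for miR167a (adjusted p = 0.276). Both were lost as well without mock180 replicate 1 (adjusted p = 0.0597 and 0.0613) or mock180 replicate 2 (adjusted p = 0.0716 and 0.0935).

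With EBR, 3 of the 4 miRNAs had a smaller log2 difference between 180 and 30 min than in mock. These were 0.07 for miR160a, 0.11 for miR164a and 0.07 for miR167a, with adjusted p between 0.716 and 0.843 from limma, and all 3 were below 0 after centring (-0.06, -0.02 and -0.06). miR390a had the largest of the 4, at 0.31 (interval 0.06 to 0.55, adjusted p = 0.0704), and 0.18 after centring (interval -0.0049 to 0.36, adjusted p = 0.138). It ranked eighth from the highest among the 43 miRNAs and did not pass the threshold, which 16.3% of them passed in the upward direction. It passed when the fit held only the EBR arrays (adjusted p = 0.0426). It also passed without either mock30 array, but these arrays are outside the comparison and its value stayed at 0.31. Without EBR30 replicate 2 it passed with a log2 difference of 0.41. Without EBR30 replicate 1 the log2 difference was 0.20 (adjusted p = 0.641). Averaged over mock and EBR, the log2 difference between 180 and 30 min was 0.19 for miR160a, 0.18 for miR167a and 0.13 for miR164a. Their adjusted p from limma was 0.0560, 0.0625 and 0.178. This difference passed the threshold narrowly for miR390a alone of the 4 (0.20, adjusted p = 0.0472), and for 58.1% of the 43 in the upward direction. It was -0.02 after centring, and the call was lost without mock30 replicate 1 (adjusted p = 0.176), EBR30 replicate 1 (0.237), mock180 replicate 2 (0.0971) or either EBR180 array (0.0968 and 0.0615). With all 4 arrays of each time pooled, none of the 4 miRNAs had every 180 min array above every 30 min array, against 27.9% of the 43, and the two-sided exact permutation p was 0.200 for miR160a, 0.229 for miR164a, 0.0857 for miR167a and 0.114 for miR390a (0.287, 0.317, 0.194 and 0.197 after Benjamini-Hochberg adjustment over the 43 miRNAs; the smallest p that 4 arrays against 4 allow is 0.0286).

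**Figure D4:**
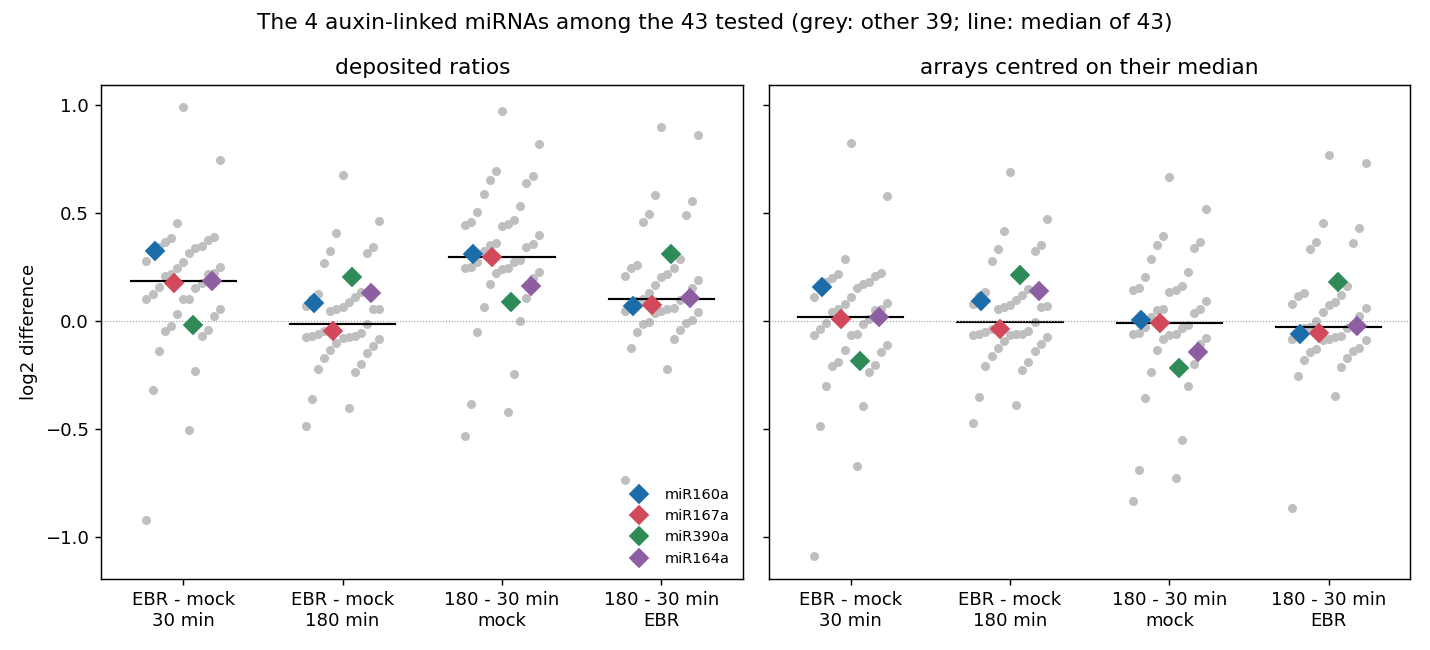
Log2 differences (vertical axis) of the 43 miRNAs in 4 comparisons, on the deposited ratios and on centred arrays; diamonds are the 4 auxin-linked miRNAs, grey points the 39 others and lines the median of all 43. In mock the median difference between 180 and 30 min is 0.29, close to the 0.31 of miR160a and the 0.29 of miR167a, and miR390a lies below the median at 30 min and above it at 180 min in the comparisons of EBR with mock.

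Over the 4 groups, miR160a passed limma's moderated F-test (adjusted p = 0.0144), as did 62.8% of the 43 miRNAs, while miR167a, miR390a and miR164a did not (adjusted p = 0.122, 0.0796 and 0.164). After centring miR160a (adjusted p = 0.0320) and miR164a (0.0491) passed, with 48.8% of the 43, and miR390a and miR167a did not (0.0758 and 0.676). In an unmoderated one-way analysis, the kind that the methods name, the unadjusted p was 0.0334 for miR160a and between 0.180 and 0.191 for the other 3, where 51.2% of the 43 miRNAs were under 0.05, and none of the 4 passed after adjustment (adjusted p between 0.0802 and 0.228), where 20.9% did.

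The profiles of the 4 miRNAs over the 8 arrays were less alike after centring than on the deposited ratios. The Pearson correlation between the log2 ratios of miR160a, miR164a and miR167a was between 0.85 and 0.94, and that of each with miR390a was between 0.57 and 0.71. After centring, the highest was 0.57, between miR160a and miR164a, and the lowest -0.38, between miR390a and miR167a. These correlations describe 8 arrays in 4 groups and share the arrays and their scaling.

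Among the 39 other miRNAs, the centred profile of miR160a was most like those of miR156h (r = 0.76 over 8 arrays), a regulator of SPL factors, and of miR166a (r = 0.69), a regulator of HD-ZIP III factors. That of miR164a was most like miR395a (r = 0.90), which is known from sulfate starvation, and miR399b (r = 0.86), known from phosphate starvation; on the deposited ratios these correlations were 0.24 and 0.51. miR390a was closest to miR397a (r = 0.70), a regulator of laccases, and to miR399b (r = 0.68). After centring no profile was close to that of miR167a, the highest being miR395b (r = 0.52) and miR403 (r = 0.46), the latter a regulator of AGO2. On the deposited ratios its correlations with these were 0.40 and 0.94.

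A list of other miRNAs with known roles in root development (miR165, miR166, miR169, miR170, miR171, miR396 and miR847) had 13 entries, of which 8 were above 0.01 on all arrays. This list was chosen with earlier results of these data known. The 43 miRNAs include its 8, and several of the 8 share a family. In EBR30 against mock30, 6 of these 8 were called higher, against 30.2% of all 43, and 0 lower. Their median log2 fold change was 0.34, against 0.18 for all 43 miRNAs and 0.18 for the 4 auxin-linked miRNAs. After centring, 2 of the 8 were called higher (9.3% of all 43), with medians of 0.17 for the list, 0.02 for all 43 and 0.01 for the 4. At 180 min 1 of the 8 was called higher (9.3% of all 43), with medians of 0.09 for the list, -0.02 for all 43 and 0.10 for the 4. After centring 2 were called higher and 1 lower, against 16.3% and 14% of all 43.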

How the data were processed

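Total RNA (100 ng) of each sample was labelled with Cyanine 3 and hybridised to customised Agilent arrays (miRBase release 14). The authors deposited 1 linear ratio for every miRNA on every array, relative to the miRNA's median, made with Agilent Feature Extraction 9.1, which the submitters' processing notes name, and GeneSpring, with the baseline set at the median of all samples. The background correction and the scaling between arrays are not given in the sources used here. No signal over background came with the ratios, so how close a miRNA lay to background could not be judged. The small number of arrays also limits the precision. The series text speaks of 2 independent experiments at each time but not of separate cultures; p-values measure the spread between these arrays, which may be technical.

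The log2 ratios of the 43 miRNAs above 0.01 on all 8 arrays (114 others were at 0.01 on all and 4 on some) were fitted with limma 3.58.1 in R 4.3.3, with a mean for each group and empirical Bayes moderation; p-values were adjusted by Benjamini-Hochberg over the 43, with a threshold of 0.05. Without centring, moderation gave all miRNAs 1 common spread (standard error 0.125 for EBR against mock). These tests had 172 degrees of freedom, against 4 for a single miRNA by itself. They treat the miRNAs as independent, although shifts common to an array are shared. The uncentred intervals and p-values may therefore overstate the precision of 2 arrays a group. The steps were tested on simulated data. The alternatives were array centring, quantile normalization, a replicate block, each miRNA's own spread, a spread trend, the 4 partly measured miRNAs, linear ratios, the groups compared only, and each array left out. A lone array was assumed to vary like the other groups. All entries of the 5 families were named; for each measured entry the 2 miRNAs with the highest centred correlation were also named. The members and lists were chosen with earlier results of these data known. No sequences are shown.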

Additional observations from a re-analysis of the deposited data

Results flagged for a closer look

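The EBR effect on miR390a differed between the times after the arrays were centred: it was 0.40 higher on the log2 scale at 180 min than at 30 min (limma interaction term, adjusted p = 0.0280). Starting from the centred values, it was between 0.30 and 0.49 with 1 array left out (adjusted p between 0.0101 and 0.0915) and 0.42 when only miRNAs outside the 5 families set the centre (adjusted p = 0.0301). These settings were added after the data were seen; those set at the outset, which start from the deposited ratios, gave an adjusted p of up to 0.687. The centred difference of the EBR effect passed the threshold for 34.9% of the 43 miRNAs. Both centred EBR arrays of miR390a were below both mock arrays at 30 min, as for 32.6% of the 43. At 180 min they were above both, as for 37.2%. On the deposited ratios the arrays of miR390a overlapped at 30 min. There the difference of its EBR effect was 0.22, with an adjusted p of 0.274 from limma, above the threshold. The array medians, which centring removes, were 0.17 higher in EBR30 than in mock30 and moved with this result; their part in it was not tested.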

How the results depend on the processing

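Counts are of the 43 miRNAs past the adjusted threshold. Centring and quantile normalization changed the count at EBR30 from 16 (13 higher, 3 lower) to 8 (4 and 4) and 6 (2 and 4), at EBR180 from 7 (4 and 3) to 13 (7 and 6) and 11 (6 and 5), for 180 against 30 min in mock from 28 (25 and 3) to 15 (7 and 8) and 10 (5 and 5), and averaged over mock and EBR from 25 (25 and 0, and 0 lower also unadjusted) to 15 (9 and 6) and 11 (7 and 4). With EBR the split of 7 higher and 1 lower became 7 and 5, and 6 and 5; for the difference of the EBR effect, 4 and 7 became 8 and 7, and 8 and 6. With each miRNA's own spread the counts were 2 at EBR30, 0 at EBR180 (9 unadjusted, against 10 with limma's moderation), 4 for the difference of the EBR effect (11 as reported), 2 for 180 against 30 min with EBR (8 as reported), 13 averaged over mock and EBR, and 9 in the F-test (27 as reported). With the 4 miRNAs at 0.01 on some arrays kept they were 4 at EBR30, 1 at EBR180, 6 for the difference, 2 for the times with EBR and 16 in the F-test. Linear ratios gave 10 at EBR30, and the spread trend 4 at EBR180. With 1 array left out the counts ranged from 5 to 19 at EBR30 (6 without mock30 replicate 1, 5 without EBR30 replicate 1, 9 without EBR30 replicate 2), from 2 to 9 at EBR180 (2 without mock180 replicate 2 or EBR180 replicate 1), from 7 to 13 for the difference (7 without EBR30 replicate 1), from 19 to 32 for the times in mock, from 4 to 11 with EBR (4 without EBR180 replicate 1), from 17 to 31 averaged, and from 21 to 35 in the F-test. Fewer arrays also lower the precision; other causes were not tested.

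For the 4 auxin-linked miRNAs, 384 of 436 values under these alternatives kept their call or lack of one, 29 lost a call, 19 gained one and 4 turned direction where the value was called under one setting or the other. The 4 that turned direction were, between 180 and 30 min in mock, miR160a (-0.028 after quantile normalization), miR164a (-0.14 after centring) and miR167a (-0.010 after centring), and, averaged over mock and EBR, miR390a (-0.020 after centring, 0.20 and called as reported, adjusted p = 0.0472). The turned values of miR167a and miR390a were smaller than their standard errors, and centring shifts all miRNAs of an array alike. Deviations of same-numbered arrays from their group means correlated between 0.11 and 0.36 across the 43 miRNAs; with 2 replicate numbers this does not establish a pairing. The replicate block left the count at 16 at EBR30, 7 at EBR180 and 28 for the times in mock, and changed no call of the 4 miRNAs on the deposited ratios. Added after the data were seen, centring with the replicate block called miR390a at EBR30 (-0.19, adjusted p = 0.0253) and EBR180 (0.21, adjusted p = 0.0160), took the adjusted p of the difference between these effects to 0.00517, and left miR164a at EBR180 above the threshold (adjusted p = 0.0510). Centring on the 39 miRNAs outside the 5 families, also added, gave 0.42 for the difference of the EBR effect on miR390a (adjusted p = 0.0301), 0.14 for miR160a at EBR30 (adjusted p = 0.0336) and 0.15 for miR164a at EBR180 (adjusted p = 0.0485).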
